A study of Saccharomyces cerevisiae with 4 samples.

Results

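BTN2 and 7 other genes of yeast protein aggregate sorting and disaggregation were examined in Saccharomyces cerevisiae cells that lack lpz8, compared with wild-type cells. The members were taken by gene symbol from the array's annotation: the sorting factors BTN2, CUR1 and HSP42, the disaggregases HSP104 and HSP78, the small heat shock protein gene HSP26, and the J-protein genes SIS1 and YDJ1. They are 8 of the 5574 genes named on the array and occupy 9 of its 8832 spots, since HSP78 was spotted at 2 positions and each of the others at 1. All 8 had values on all 4 arrays and so were among the 5137 genes tested. The set was assembled with results of these data known. BTN2 was chosen by its high ratio and by its difference between copper conditions, and the rest by function, so the ratios of the members are given as a description and support nothing by themselves.

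Each array set total RNA of wild-type cells, labelled Cy3, against total RNA of lpz8 null cells, labelled Cy5. Null cells came from low copper on 2 arrays and from high copper on the other 2, and the labels mark 1 array per condition as a repeat (low copper replicate 2 and high copper replicate 1). They do not say in which copper the wild-type cells grew, the concentrations, the growth phase, the strain background and whether cultures were separate. A difference between the copper conditions is therefore a difference between ratios, in which a change in null cells and a change in wild-type cells cannot be told apart. The null RNA carried Cy5 throughout, so dye and genotype cannot be told apart for a single gene. In such whole-culture RNA, a change in few cells cannot be told apart from a smaller change in all cells.

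Each value is the log2 of null over wild-type signal after the median of each array, taken over spots measured on all 4, was set to 0; positive values mean more transcript in null cells. The log base and direction were not stated with the table and were taken as base 2 and Cy5 over Cy3. From the title of the series, Haa1 regulated transcription, lpz8 was taken to be HAA1. HAA1 encodes a DNA-binding regulator with a copper-fist domain like that of Ace1. Its spot stood at -7.35 on low copper replicate 2 while the high copper arrays gave -6.96 and -4.15, and low copper replicate 1 had no value. The spot thus matched the null label on the 3 arrays that measured it. The arrays held 7254 to 8409 values. The ratios of the 2 arrays of a condition lay a median of 0.193 apart in low copper and 0.117 in high copper over the genes tested.

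Misfolded proteins in yeast are not left dispersed but are gathered into deposits. Btn2 and its relative Cur1 direct them towards a deposit in or beside the nucleus, and Btn2 is a short-lived protein that is made in quantity under heat stress. Hsp42, a small heat shock protein, gathers them into peripheral deposits in the cytosol, while Hsp26, another small heat shock protein, binds unfolding proteins in a form from which they can be recovered. Hsp104 pulls single chains out of aggregates together with Hsp70 and a J-protein, and Hsp78 does so in the mitochondrial matrix. Sis1 and Ydj1 are the main cytosolic J-proteins, which hand substrates to Hsp70 and start its ATP cycle. Most of these genes are driven by the heat shock factor Hsf1, and HSP26, HSP42 and HSP104 also by the general stress factors Msn2 and Msn4. HSP26 has in addition been listed among genes that depend on Haa1 in weak acid stress.

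1 of the 9 spots needs a remark before its values are read. On high copper replicate 1, a run of 528 spots, numbers 1657 to 2184, held values that did not follow the other arrays at the same spot. Across these spots its Spearman correlation with the other arrays' mean was -0.017 when positions were matched and 0.546 when each value was set against the position 24 further. Over all remaining spots of that array, matched positions gave 0.574. The CUR1 spot, number 2063, lies in this run, and no other member does. If the run is displaced by 24 spots, the CUR1 value of that array is the one deposited at spot 2039. CUR1 is therefore given both as deposited and with the run moved back.

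**Figure D1:**
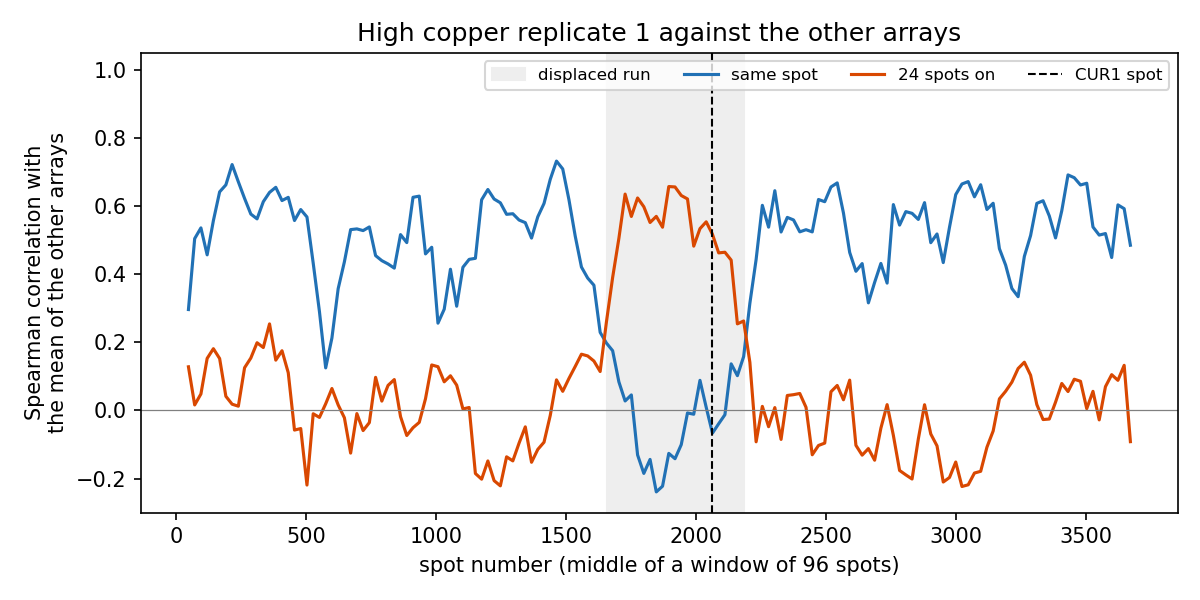
Spearman correlation between high copper replicate 1 and the other 3 arrays' mean (y axis) in windows of 96 spots along the spot number (x axis, first part of the array), at the same spot (blue) and 24 spots on (orange). Inside the shaded run the orange line lies above the blue one, and outside it the order is the reverse; the dashed line marks the CUR1 spot.

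BTN2 had the highest ratio of all 5137 genes in high copper. Its log2 ratio was 0.813 and 0.831 on the low copper arrays and 3.223 and 3.341 on the high copper arrays, in the order of replicates 1 and 2, which is kept below. The arrays of a condition lay close together and the conditions did not overlap, with a gap of 2.39 between the lower high copper array and the higher low copper array. The ratio corresponds to a 1.77-fold higher level in null cells in low copper (0.82 ± 0.01, SD, n = 2) and a 9.73-fold higher level in high copper (3.28 ± 0.08, SD, n = 2). The difference between conditions was 2.46 ± 0.06 (SE), or 5.50-fold, and ranked 7 from the top of the 5137 genes. In low copper BTN2 ranked 66 by its ratio.

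CUR1, whose protein shares sequence and sorting function with Btn2, had a smaller ratio. As deposited it stood at 0.074 and 0.222 in low copper and at 0.279 and 0.772 in high copper. The high copper arrays lay above the low copper arrays by 0.057, less than the distance of 0.493 between the high copper arrays themselves. With the displaced run moved back, high copper replicate 1 stood at 0.85 and replicate 2 at 0.7725, 0.0775 apart, and the gap to the low copper arrays became 0.5515. The high copper mean was then 1.75-fold (0.81 ± 0.05, SD, n = 2) in place of 1.44-fold (0.53 ± 0.35), and the difference between conditions was 0.66 ± 0.08 (SE) in place of 0.38 ± 0.26. Of the deposited values, the difference was 0.624 without high copper replicate 1 and 0.131 without high copper replicate 2. The ratio of BTN2 exceeded that of CUR1 on each array in either form.

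HSP42, the third sorting factor, was closest to BTN2 in low copper and fell well short of it in high copper. It stood at 0.782 and 0.729 in low copper and at 1.663 and 1.52 in high copper. The conditions did not overlap, with a gap of 0.738. HSP42 transcript was thus 1.69-fold higher in null cells in low copper (0.76 ± 0.04, SD, n = 2) and 3.01-fold higher in high copper (1.59 ± 0.10), a difference of 0.84 ± 0.08 (SE). BTN2 and HSP42 were the members with the highest ratios in low copper, 0.0665 apart, and the other 6 members had low copper means between 0.04 and 0.26.

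**Figure D2:**
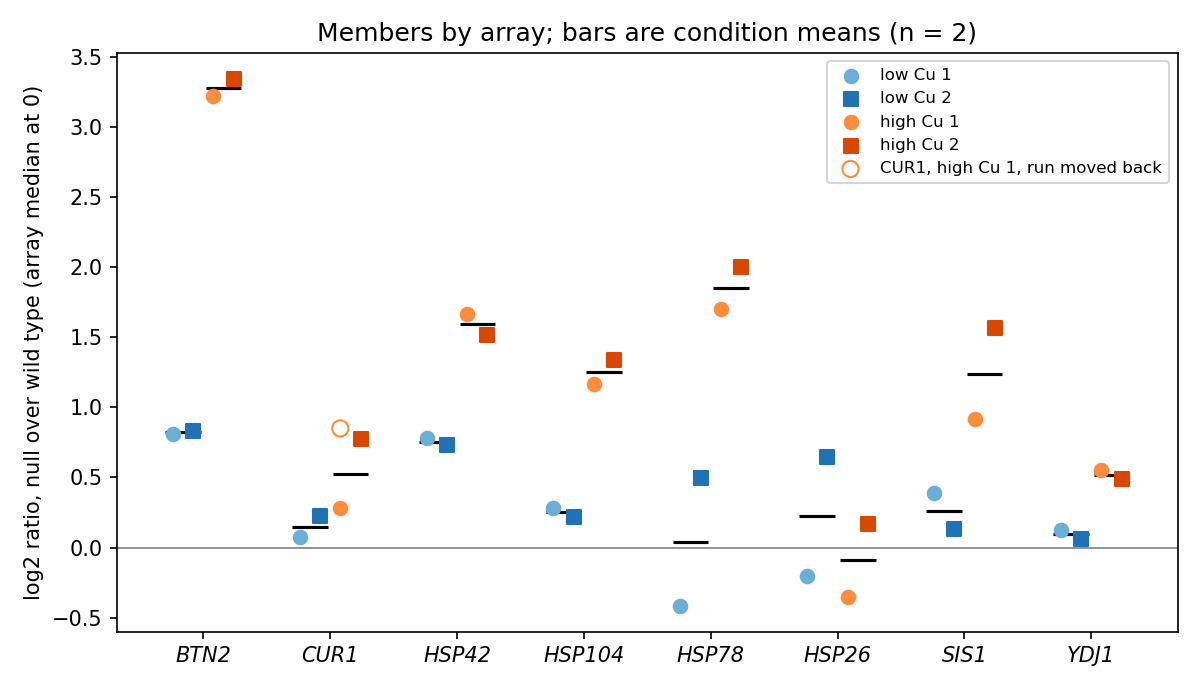
Log2 ratio of null over wild type (y axis) of each member (x axis) on the 4 arrays, low copper in blue and high copper in orange; black bars are condition means of 2 arrays, and the open circle is CUR1 on high copper replicate 1 with the displaced run moved back. BTN2 stands at 3.223 and 3.341 in high copper, and HSP26 is the member whose conditions overlap.

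The disaggregase genes had mean ratios nearer to 0 in low copper than in high copper. HSP104, the cytosolic disaggregase, stood at 0.284 and 0.221 in low copper and at 1.165 and 1.34 in high copper. The groups were separated by 0.881, and the level in null cells was 1.19-fold (0.25 ± 0.04, SD, n = 2) and 2.38-fold (1.25 ± 0.12) that of wild type. HSP78, the mitochondrial disaggregase, stood at -0.4145 and 0.493 in low copper and at 1.704 and 2.004 in high copper, where its mean of 3.62-fold (1.85 ± 0.21) was the second of the members and ranked 10 of all genes tested. Its low copper mean of 0.04 ± 0.64 (SD, n = 2) joined values of opposite sign.

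That spread came from 1 of the 2 HSP78 spots. On low copper replicate 1 spot 6726 read -1.308 and spot 7043 read 0.479, while on low copper replicate 2 they read 0.563 and 0.423. In high copper the spots differed less, with 1.56 and 1.848 on replicate 1 and 1.992 and 2.016 on replicate 2. By spot 7043 alone HSP78 was 1.37-fold higher in low copper (0.45 ± 0.04, SD, n = 2) and 3.82-fold higher in high copper (1.93 ± 0.12), a difference of 1.48 ± 0.09 (SE). By spot 6726 alone the difference was 2.15 ± 0.96. The order of the conditions was the same at either spot, and the size of the difference depends on the spot. Which reading of low copper replicate 1 is the better one was not tested.

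The J-protein genes also had higher ratios in high copper, by different amounts. SIS1 stood at 0.389 and 0.129 in low copper and at 0.916 and 1.563 in high copper, means of 1.20-fold (0.26 ± 0.18, SD, n = 2) and 2.36-fold (1.24 ± 0.46). The groups were 0.527 apart, but the high copper arrays were themselves 0.647 apart, so the size of the difference, 0.98 ± 0.35 (SE), is loosely held. YDJ1, the more abundant and more general of these J-proteins, stood at 0.122 and 0.064 in low copper and at 0.55 and 0.488 in high copper. Its arrays agreed within 0.062 in each condition, and its means were 1.07-fold (0.09 ± 0.04) and 1.43-fold (0.52 ± 0.04). On each array of high copper SIS1 exceeded YDJ1.

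HSP26 was the exception. It stood at -0.204 and 0.649 in low copper and at -0.354 and 0.169 in high copper. The ranges of the conditions overlapped, the sign differed between the arrays of either condition, and the difference of -0.32 ± 0.50 (SE) was smaller than its error. In both conditions the array marked as not a repeat and the repeat array lay 0.523 or more apart, the widest distance among the members after HSP78 in low copper and SIS1 in high copper. HSP26 thus had neither a direction in null cells nor a difference between copper conditions that these arrays can show.

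In order of the high copper ratio, BTN2 led by 1.43 over HSP78, followed by HSP42, HSP104, SIS1, CUR1, YDJ1 and HSP26. BTN2 was set apart by more than the spread of any member. The ranges of SIS1 overlapped those of HSP42 and HSP104, and as deposited the range of CUR1 enclosed that of YDJ1, so these neighbours have no settled order. In low copper the ranges of HSP104, SIS1, HSP26 and HSP78 overlapped, and CUR1 and YDJ1 also lay within the range of HSP26. The median of the 8 members was 0.203 and 0.3575 on the low copper arrays and 1.0405 and 1.43 on the high copper arrays.

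Linear models were fitted with limma across all 5137 genes with a mean for each copper condition, and a gene was called at a Benjamini-Hochberg adjusted p under 0.05. Nothing in the labels placed the arrays in separate cultures, so these p-values measure the spread between arrays, which may be technical. Over both conditions 6 of the 8 members were called higher in null cells (BTN2, HSP42, HSP104, HSP78, SIS1 and YDJ1), where 6.44% of all genes were called higher (331 of 5137) and 5.24% lower (269). Without centring, which set the median of low copper replicate 1 to 0 from -0.157, 181 genes were called higher, 225 were called lower, and 3 members passed. With genes measured on at least 3 arrays 3 members passed, where 7.48% of all genes were called in either direction, against 11.7% in the main fit. Without a copper term 1 member passed, HSP42, with BTN2 no longer called, where 5.68% of all genes were called. In high copper 4 of the 8 were called higher (BTN2, HSP42, HSP104 and HSP78) against 1.07% of all genes, and in low copper 0 of the 8 against 0.234%. Since the members were chosen with these ratios in view, nothing is read from the counts.

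The calls also depended on the arrays that entered the fit. Without high copper replicate 1 or without high copper replicate 2, limma called 0 members and 0 genes over both conditions, with 907 and 846 genes at an unadjusted p under 0.05. Without low copper replicate 1 or without low copper replicate 2 it called the same 6 members, with 959 and 1940 genes in all. The ratio differed between the copper conditions, as high minus low, for 0 of 5137 genes (0%) after adjustment and for 792 (15.4%) at an unadjusted p under 0.05. In low copper the main fit called 0 members, and some fits with 1 low copper array left out called BTN2 or HSP42. Such fits took the spread from the high copper pair alone, so their calls held no spread between low copper arrays. Left with replicate 2 or replicate 1, the low copper ratio was 0.831 or 0.813 for BTN2 and 0.729 or 0.782 for HSP42. From the high copper pair alone 6 members were called in high copper, where 17.5% of all genes were called (898). With the displaced run moved back, 2 members were called in low copper, BTN2 and HSP42, where 1.22% of all genes were called (63). In high copper 7 members were called, CUR1 included, where 3.9% of all genes were called (201). As deposited, these shares of all genes were 0.662% and 2.57%. The same 7 members were then called over both conditions, among 751 genes (14.6%), and BTN2 was 1 of 2 genes called for the difference between conditions. Against 1 low copper array the BTN2 difference was 2.451 without replicate 1 and 2.469 without replicate 2, with no low copper spread in the fit.

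For 7 of the 8 members both high copper arrays lay above both low copper arrays, as they did for 25.3% of all genes, HSP26 being the exception. A difference of at least 1 log2 unit was seen for BTN2, HSP78 and HSP104, against 2.37% of all genes, and of at least 0.5 for these and SIS1 and HSP42, against 8.12%. The median difference was 0.91 over the members and 0.01 over all genes tested. In low copper the medians were 0.24 and -0.01, and in high copper 1.25 and -0.01.

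**Figure D3:**
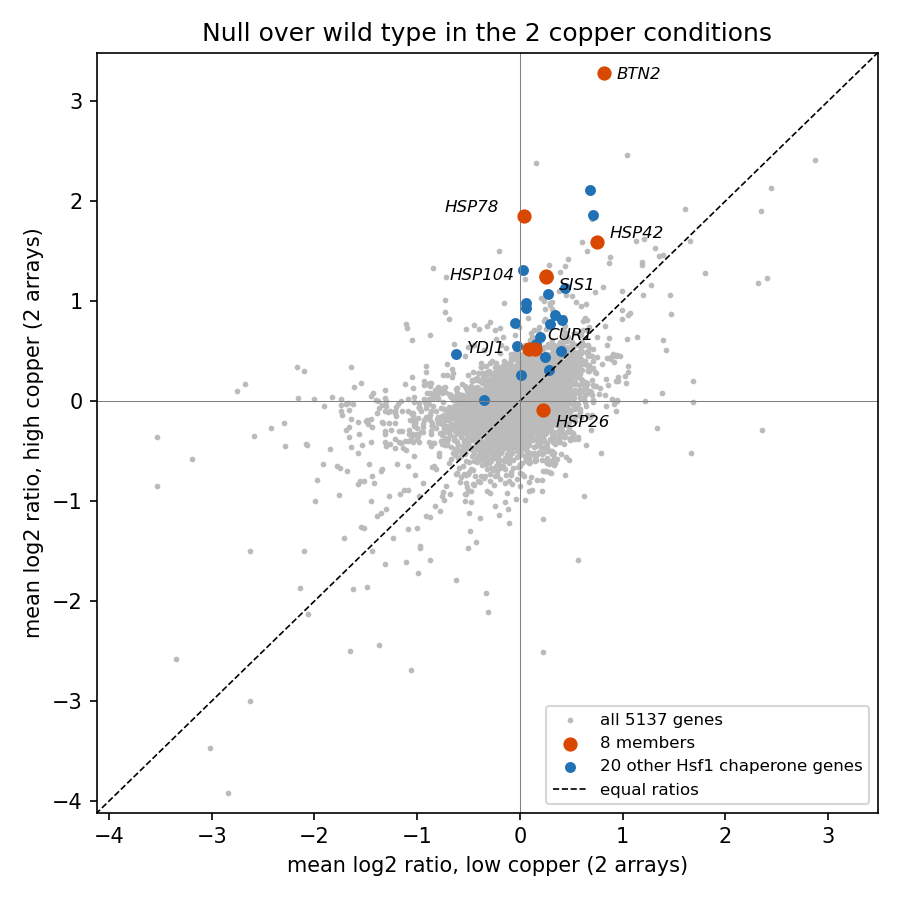
Mean log2 ratio of null over wild type in low copper (x axis) and in high copper (y axis), 2 arrays each, for the 5137 genes tested (grey), the 8 members (orange, named) and 20 other chaperone genes under Hsf1 (blue). BTN2 lies at 0.82 and 3.28, and 7 members lie above the dashed line of equal ratios, HSP26 below it.

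Other chaperone genes under Hsf1, which are not members, were tested in the same fit. This list and those below were chosen by function with earlier results of these data known, so nothing is read from their counts. Over both conditions 12 of 20 rose in null cells and 0 fell, with a median of 0.47, against 6.44% of all genes called higher and a median of -0.02. In high copper 9 of 20 rose with a median of 0.78, against 1.07% of all genes called higher. In low copper 0 passed, with a median of 0.22, against 0.234% of all genes called higher. Both high copper arrays lay above both low copper arrays for 17 of the 20 and for 25.3% of all genes, and 0 passed the test of the difference itself. The count of 12 was 2 without a copper term, where 157 of all genes were called higher in place of 331. It was also 2 with the arrays marked as repeats fitted as a block, where 12 of all genes were called higher. The high copper count of 9 was then 0, where 0 of all genes were called. Over both conditions and in high copper, the counts were 10 and 5 with genes measured on at least 3 arrays. Of all genes, 205 and 29 were then called higher. Without centring the counts were 10 and 7, with scaling 14 and 14, and with the run moved back 13 and 10. With 1 high copper array left out none of these calls remained. With 1 low copper array left out more genes passed, both on this list and among all genes.

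The genes of this list with the smallest p included APJ1, FES1 and SSA4. APJ1, a J-protein related to Ydj1, stood at 0.891 and 0.481 in low copper and at 2.087 and 2.145 in high copper, and rose 2.64-fold over both (limma adjusted p = 0.00931). FES1, a nucleotide exchange factor of cytosolic Hsp70, stood at 0.76 and 0.662 and at 1.731 and 1.991, and rose 2.44-fold (limma adjusted p = 0.0074). Both were above 0 on all 4 arrays, as were 20% of all genes. Their high copper arrays lay above their low copper arrays, as for 25.3% of all genes. SSA4, the Hsp70 that is made under heat stress, stood at 0.074 and -0.011 in low copper and at 1.31 and 1.312 in high copper (limma adjusted p = 0.0159 over both conditions), so its ratio was near 0 in low copper. Without a copper term APJ1, FES1 and SSA4 did not pass (adjusted p = 0.0653, 0.0532 and 0.184), and without either high copper array no call named here or below remained.

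SSA2, another cytosolic Hsp70, stood at 0.53 ± 0.29 (SD, n = 4) with a limma adjusted p of 0.0264, and of 0.0653 without a copper term. SSA1 stood at 0.67 ± 0.56 with 0.0553, and with 0.0482 when the displaced run was moved back. The probes of these near-identical Hsp70 genes may share RNA, so they are not separate measurements. HSP82 (0.37 ± 0.49) passed with 0.0383 and HSC82 (0.26 ± 0.36) did not with 0.08, and the same caution holds for this pair of Hsp90 genes. SSE1 and SSE2, exchange factors of the Hsp110 family that work with Hsp104 in disaggregation, stood at 0.14 ± 0.17 and -0.17 ± 0.21 and did not pass (0.219 and 0.112).

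**Figure D4:**
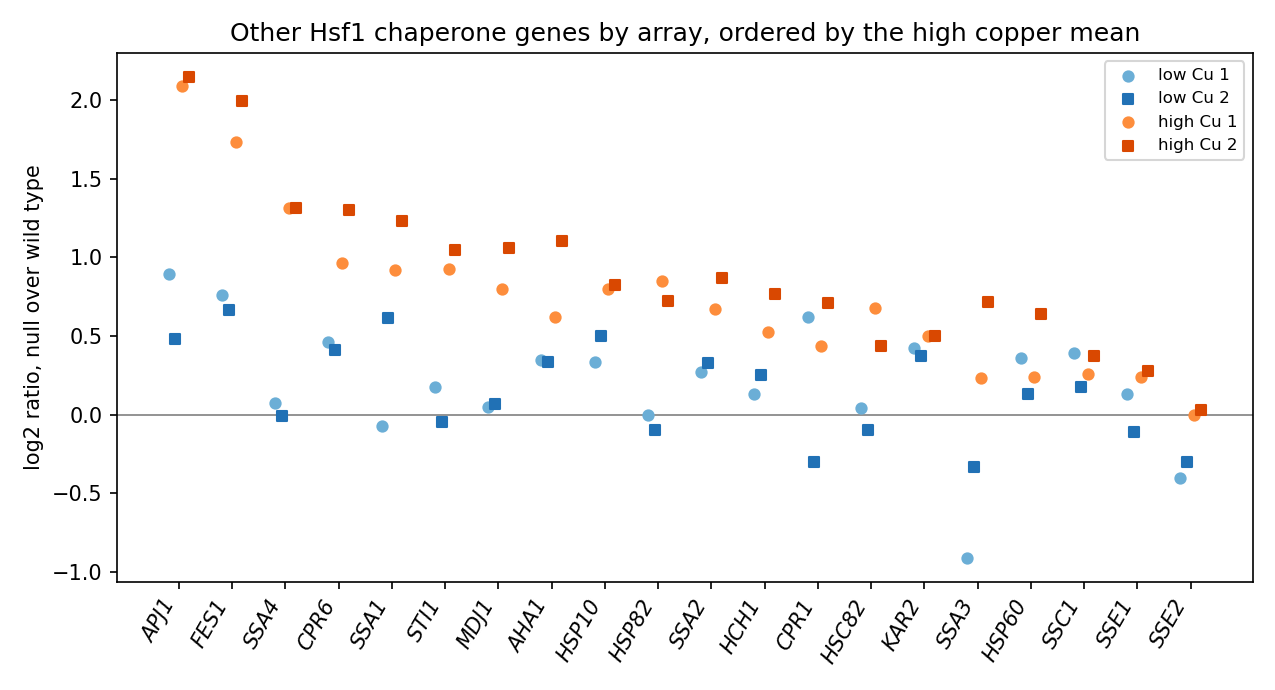
Log2 ratio of null over wild type (y axis) of 20 other chaperone genes under Hsf1 (x axis, ordered by the high copper mean) on the 4 arrays, low copper in blue and high copper in orange. APJ1 and FES1 are the highest in high copper, and the blue and orange points overlap for CPR1, HSP60 and SSC1.

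The J-protein, mitochondrial and Hsp70 lists overlap the Hsf1 list, and their called genes were all among its 12, so they are not separate observations. Of 18 J-protein genes outside the members, 2 rose over both conditions, APJ1 and MDJ1, and 0 fell. Their median was -0.02, where 6.44% of all genes were called higher. MDJ1 stood at 0.49 ± 0.51 (SD, n = 4) with a limma adjusted p of 0.0317, and of 0.175 without a copper term. MDJ1, the J-protein of the mitochondrial matrix, stood at 0.046 and 0.07 in low copper and at 0.801 and 1.059 in high copper. HSP78 acts in the same compartment. Of 9 mitochondrial chaperones and proteases MDJ1 and HSP10, the co-chaperonin (0.61 ± 0.24, 0.0211), rose. SSC1, the Hsp70 on which Hsp78 depends, stood at 0.30 ± 0.10 and did not pass (0.0614), and its copper conditions overlapped. Of 12 genes of the cytosolic Hsp70 system SSA2, SSA4 and FES1 rose, with a median of -0.01. The ribosome-bound partners of that list did not pass.

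Of 12 genes that mark or extract misfolded proteins for destruction, 1 rose, against 6.44% of all genes. It was UBC4, a ubiquitin-conjugating enzyme (0.57 ± 0.19, SD, n = 4, limma adjusted p = 0.0252). RSP5, a ubiquitin ligase, stood at 0.20 ± 0.04 (0.0754) and CDC48, the segregase ATPase, at 0.23 ± 0.11 (0.0777), and neither passed. HSF1 itself stood at 0.308 and 0.202 in low copper and at 0.373 and 0.242 in high copper, a mean of 0.28 that did not pass (0.056, and 0.0493 with the displaced run moved back). MSN2 stood at -0.25 ± 0.10 (0.0757), and MSN4 fell (mean -0.35 ± 0.27, limma adjusted p = 0.0497), with -0.051 and -0.237 in low copper and -0.47 and -0.661 in high copper. GIS1, another stress factor, rose by 0.30 ± 0.13 (0.0481). MSN4 and GIS1 were no longer called with genes measured on at least 3 arrays (0.0618 and 0.0598), or without a copper term, nor was GIS1 without centring (0.0885).

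Over both conditions the general stress genes under Msn2 and Msn4 did not move one way. Of 14 tested, 4 rose and 3 fell, with a median of 0.28, where 6.44% of all genes were called higher and 5.24% lower. In high copper 2 rose, GLC3 and GSY2, and 0 fell, with a median of 0.28. There 1.07% of all genes were called higher and 1.5% lower. In low copper 0 were called, with a median of 0.23, where 0.662% of all genes were called. Averaged over both conditions, the values were as follows. GLC3, the glycogen branching enzyme, rose by 0.81 ± 0.19 (SD, n = 4, limma adjusted p = 0.0107) and GSY2, a glycogen synthase, by 0.61 ± 0.34 (0.0204, and 0.0653 without a copper term), while HSP12, a small membrane-associated stress protein, stood at -0.75 ± 0.13 (0.0204) and DDR2, another stress-induced gene, at -0.51 ± 0.10 (0.028). HSP12 stood between -0.944 and -0.668 on the 4 arrays, with overlapping copper conditions.

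BTN2 was first tied to BTN1, the yeast counterpart of the human Batten disease gene, because its transcript and that of HSP30 were raised in cells without BTN1. In the null cells studied here the ratios of BTN2 and HSP30 had opposite signs. Both ratios were higher in high copper than in low copper, by 2.46 for BTN2 and 0.98 for HSP30. HSP30, a membrane protein that restrains the plasma membrane proton pump, stood at -1.6995 and -1.6585 in low copper and at -0.6595 and -0.7415 in high copper, a mean of -1.19 ± 0.57 (SD, n = 4, limma adjusted p = 0.00586). Of the 8 tested genes tied to BTN2 in this way or through endosome sorting, HSP30 was the one that passed, and 0 rose. BTN1, listed as YHC3, stood at -1.254 on low copper replicate 1 and between 0.006 and 0.164 on the other arrays, and RHB1, a small GTPase whose location depends on Btn2, stood at 0.14 ± 0.16 (0.242).

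The genes nearest to BTN2 by root mean square difference of the log2 ratio over the 4 arrays were ATG41 (0.655), FIT2 (0.815), APJ1 (0.844), FES1 (1.01) and ROQ1 (1.04). No gene lay nearer than 0.655, and no other gene reached the high copper ratio of BTN2. ATG41, which acts in autophagy, stood at 1.353 and 0.742 in low copper and at 2.209 and 2.717 in high copper. FIT2, a cell wall mannoprotein of siderophore uptake, stood at 0.19 and 0.125 and at 2.615 and 2.157, and ROQ1, which redirects the ubiquitin ligase Ubr1 to misfolded proteins, at 0.644 and 0.761 and at 1.658 and 1.981. For HSP42 the nearest were RER1, a sorting receptor of the early secretory pathway (0.176), PHA2, an enzyme of phenylalanine synthesis (0.21), FES1 (0.241), ROQ1 (0.241) and ZPR1, a zinc finger protein (0.252), so FES1 and ROQ1 were near both.

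The neighbours of BTN2 on its chromosome, in the gene order of the R64 reference annotation, did not share its ratio. VPS62 on one side stood at -0.002 and -0.154 in low copper and at 0.271 and 0.315 in high copper. SKN1 on the other side stood at -0.059 and -0.029 in low copper and at -0.36 and -0.389 in high copper.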

How the data were processed

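For each of 4 arrays the authors deposited ratios per spot, taken here as log2. How the authors normalized them, the log base and the array's genome build are not given in the sources used here, and no coordinates or sequences are printed. Channel intensities and backgrounds were not used, so signal above background is unknown, and the number of arrays limits the precision. All columns mapped to samples by accession, and replicates were numbered in that order. Spots were named from GEO's platform annotation and checked through Entrez identifiers against RefSeq R64.

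Arrays were centred on their median over spots measured on all 4 arrays, these spots were averaged per gene, and limma 3.58.1 under R 4.3.3 was run on 5137 genes (lmFit, eBayes, Benjamini-Hochberg, threshold 0.05, 2 residual and 2.22 prior degrees of freedom). The fit was tested on simulated data with independent noise of equal spread on each array. Such data cannot show how the fit handles the displaced run or arrays of unequal spread. An exact permutation test of 2 against 2 arrays cannot go below a two-sided p of 0.333 and was not used. The displaced run was located by comparing each array with the others at offsets of up to 60 spots in blocks of 24. Members and lists were chosen with earlier results of these data known. Named genes were HAA1, the members, the 5 genes nearest to BTN2 and to HSP42, the 4 genes of smallest p in each list, and the stress factor and BTN1 lists. HSP82, HSC82, SSE1, SSE2, SKN1 and VPS62 were named after their values were seen. Alternatives covered centring, scaling, separate spots, the displaced run, arrays left out, a looser filter, a block and other designs.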

Additional observations from a re-analysis of the deposited data

Results flagged for a closer look

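YAP1, the oxidative stress factor, and IST2, a membrane protein of the Btn2 list, lay above 0 on both low copper arrays and below 0 on both high copper arrays. For 27.1% of all genes both high copper arrays lay below both low copper arrays. YAP1 stood at 0.004 on low copper replicate 1, whose median was moved to 0 from -0.157, so its sign there depends on the centring. The high minus low difference was -0.12 for YAP1 (means of 0.03 and -0.10) and -0.38 for IST2 (means of 0.27 and -0.12), and limma's test of the difference itself gave adjusted p-values of 0.565 and 0.295. An IST2 spot lies in the displaced run of high copper replicate 1.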

How the results depend on the processing

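The high minus low difference of BTN2, 2.46, was 2.57 without centring, 2.77 with arrays scaled to equal spread, and 2.401 to 2.519 with 1 array left out. Of 116 member values under alternatives, 105 moved by no more than the spread between arrays, 11 moved by more and 0 of the called ones changed sign. The cause was not tested. Leaving out 1 array cannot move a value by more than that spread, so those values could only fall among the 105. The count therefore does not measure stability. Among them the HSP26 difference went from -0.315 to 0.1115 without low copper replicate 2. Counts of called genes varied between alternatives. Without a low copper array the high copper pair alone set the spread. With 1 array left out they ran from 0 to 1940 over both conditions, 0 to 1438 in low copper, 0 to 898 in high copper and 0 to 743 for the difference, and each 0 came without a high copper array, when the low copper pair alone set the spread and 245 to 942 genes had an unadjusted p under 0.05. Over both conditions 600 genes became 292 without a copper term. In low copper 34 (12 higher, 22 lower) became 19 without centring (2 and 17), 61 with scaling (31 and 30), 63 with the displaced run moved back and 0 from the low copper pair alone. In high copper 132 became 363 with scaling, 201 with the run moved back, 71 with genes on at least 3 arrays and 898 from the high copper pair alone. For the difference, 0 became 2 with the run moved back. With an array left out, YHC3 (-0.249) ran from -0.564 to 0.066 and PEP8 (0.027) from -0.0273 to 0.0813, and PEP8 was -0.017 without centring. The arrays marked as repeats were also fitted as a replicate block, although the mark does not show that they belong together: the deviations of the marked arrays from their conditions correlated at 0.0872 across genes. With this block 36 genes were called over both conditions, BTN2 and HSP42 among them, and 0 in low copper, in high copper and for the difference (1520, 1158 and 713 at an unadjusted p under 0.05).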
